A study of Homo sapiens with 21 samples.

Results

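The 10 genes described here encode ligands of the epidermal growth factor (EGF) receptor family, the receptors themselves and proteins that feed back on the ERK kinases downstream of them. They are 10 of the 26809 named genes in the RNA libraries: the ligand genes HBEGF, TGFA, AREG and EREG, the receptor genes EGFR, ERBB2 and ERBB3, and the feedback genes DUSP6, SPRY2 and SPRY4. They are listed by name, and the list was chosen by measured values in part, because HBEGF was already known to have higher counts in the knockout libraries of this series than in the controls. Differences of the 10 genes between knockout and control are therefore a description: levels, log2 changes and standard errors are given, and p-values are not printed. Where one of the 10 is said to be called or not in that contrast, this only places it beside the rest of the genes and supports nothing about it.

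The cells of every group were 786-O, a human cell line derived from a clear cell renal carcinoma, which lacks functional VHL. The knockout groups were 786-O cells infected with guide sg2 or guide sg4 against JMJD6, labelled JMJD6 KO, and the control group was 786-O cells infected with the control guide sgCtrl, labelled JMJD6 WT, with 3 RNA libraries each. The labels are at odds on this point: titles, guide labels and extraction text give guide infection, which is followed here, while the treatment text describes siRNA transfection against JMJD6. JMJD6 is an iron- and oxoglutarate-dependent oxygenase reported to act on proteins of RNA splicing and transcription. The labels do not say whether the infected cells were pools or clones, or whether the 3 libraries of a group came from separate cultures, so the errors and p-values measure the spread between these libraries, which may be technical. The labels give no time between infection and RNA extraction.

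EGF family ligands are made as membrane proteins and are released by proteases of the ADAM family. A ligand that binds EGFR brings receptors together in pairs, also with ERBB2, which has no known ligand of its own, or with ERBB3, whose kinase is weak. The paired receptors signal through RAS, RAF, MEK and ERK and through PI3K and AKT. ERK activity in turn raises the transcription of DUSP6, a phosphatase that acts on ERK, and of the Sprouty genes SPRY2 and SPRY4, whose products restrain the same pathway. In renal carcinoma cells without VHL, TGFA is known as an autocrine growth factor.

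Each library held between 14224263 and 16300347 estimated counts over all transcripts, and the ranges of the groups overlapped. JMJD6 itself had 13.4, 11.3 and 12.9 TPM, a unit of reads scaled by transcript length and library size, in sg2 libraries and 8.69, 10.4 and 7.56 TPM in sg4 libraries, against 32.7, 32.6 and 36.8 TPM in control libraries. All 10 markers of renal carcinoma were detected, with PAX8 at 153, 162 and 172 TPM on average in sg2, sg4 and control libraries, while CA9 was low in all 3 groups at 1.20, 1.46 and 1.49 TPM. The summed level of 7 fibroblast and pericyte markers was 15.8 to 23.8 TPM in sg2, 18.2 to 25.3 TPM in sg4 and 30.1 to 61.0 TPM in control libraries. Control library 1 stood apart at 61.0 TPM, with the other 2 controls at 30.1 and 31.5 TPM; without it the log2 change in the mean of both guides was 0.82 for HBEGF, -0.27 for TGFA and -0.19 for ERBB2. The summed level of 6 leukocyte markers, nearly all of it CD68, was 53.4 to 61.2, 54.4 to 64.7 and 67.1 to 87.4 TPM. CD3E stood at 0 TPM in every group. CSF1R went the other way from the sum, at 2.26, 1.83 and 1.18 TPM on average in sg2, sg4 and control libraries. The 4 endothelial markers together reached at most 0.16 TPM in a library. SCGB1A1 and BPIFB1, airway epithelium genes listed with their values already known, summed to 27.1 to 44.8 TPM in sg2, 24.8 to 77.5 TPM in sg4 and 3.38 to 22.7 TPM in control libraries. The part of these markers in the differences below was not tested. In bulk RNA, fewer cells of a type and less RNA per cell cannot be told apart.

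The promoters of HBEGF, TGFA and ERBB2 are shown because these are the members that stood apart from the control libraries in level with a call, HBEGF above them and the other 2 below. The windows run from 250 bases before to 50 bases after the annotated start, 5′ to 3′ on the strand of the gene, and come from RefSeq on build GRCh38.p14. Capitals mark matches to the motifs searched on both strands: the GC box GGGCGG bound by SP1-type factors, the AP-1 motif TGANTCA bound by FOS and JUN proteins, the core ACGTG of the hypoxia response element, the ETS core CCGGAA and the TATA box TATAAA. HBEGF lies at chr5:140346554-140346853 on the minus strand, TGFA, at the more upstream of its 2 annotated starts, at chr2:70553777-70554076 on the minus strand, and ERBB2 at chr17:39687844-39688143 on the plus strand.
HBEGF: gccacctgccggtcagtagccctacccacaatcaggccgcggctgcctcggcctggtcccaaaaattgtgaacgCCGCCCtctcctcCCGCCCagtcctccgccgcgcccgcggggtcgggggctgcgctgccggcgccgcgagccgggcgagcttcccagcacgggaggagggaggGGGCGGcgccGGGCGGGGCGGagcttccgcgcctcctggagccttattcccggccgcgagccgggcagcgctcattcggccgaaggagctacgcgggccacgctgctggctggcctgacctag
TGFA: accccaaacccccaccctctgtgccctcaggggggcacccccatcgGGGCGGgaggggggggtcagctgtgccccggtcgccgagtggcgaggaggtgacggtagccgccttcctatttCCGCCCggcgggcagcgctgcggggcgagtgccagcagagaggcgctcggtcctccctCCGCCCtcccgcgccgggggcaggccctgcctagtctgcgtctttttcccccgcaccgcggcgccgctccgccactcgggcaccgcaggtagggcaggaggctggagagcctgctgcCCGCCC
ERBB2: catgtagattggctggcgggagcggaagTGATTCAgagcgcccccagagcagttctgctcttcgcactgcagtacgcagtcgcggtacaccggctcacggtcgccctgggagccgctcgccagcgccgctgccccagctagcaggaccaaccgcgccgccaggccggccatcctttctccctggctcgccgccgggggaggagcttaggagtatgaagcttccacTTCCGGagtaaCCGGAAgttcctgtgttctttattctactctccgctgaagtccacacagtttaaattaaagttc

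The HBEGF window held 5 GC boxes, of which the last 2 share a base, and its GC content was 75.0%. The TGFA window held 4 GC boxes at a GC content of 75.3%. The ERBB2 window held no GC box, 1 AP-1 match and 2 ETS cores, at 60.7% GC. ERBB2 had 1 window but 6 transcripts in the files. Which of its transcripts start at this window was not determined, so it may not be the promoter of the most abundant one. Over 35116 promoter windows the median GC content was 58.7%, and 45.0% held a GC box, 7.71% an AP-1 match, 21.4% the hypoxia core, 17.2% an ETS core and 11.5% a TATA box. Of the 9 members with a window, 6 held a GC box. AREG and EREG, neighbours on chromosome 4, were the 2 with a TATA box, whose first base lay at position -29 in AREG and -32 in EREG. A match is a stretch of letters, and binding at these windows was not measured here.

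HBEGF, heparin-binding EGF-like growth factor, binds EGFR and ERBB4 and is also the cell surface receptor of diphtheria toxin. In normalised counts (CPM), which are scaled by library size and not by transcript length, it had 14.6, 15.8 and 15.5 CPM in sg2 libraries and 13.01, 15.5 and 15.5 CPM in sg4 libraries, against 7.81, 9.58 and 7.32 CPM in control libraries. All 6 knockout libraries lay above all 3 controls, and the lowest knockout library, sg4 library 1, was above the highest control. These levels rest on 207 to 235 estimated counts in a knockout library and 103 to 147 in a control library. The log2 change against control was 0.89 ± 0.135 with sg2 and 0.83 ± 0.135 with sg4 (SE), or 1.85-fold and 1.77-fold. Averaged over the guides it was 0.86 ± 0.12 (SE). Both guides share the 3 control libraries, so these are not independent replicates of 1 result. HBEGF had 1 transcript in the files, of 2358 nucleotides. According to earlier results of these data, short transcripts were shifted in control library 3 and sg4 libraries 2 and 3. The size of that shift is not shown here. Without those 3 libraries the mean change was 0.70, or 0.58 with sg4 alone, where only 1 sg4 library was left. With the length trend removed and all 9 libraries kept, it was 0.86 in the mean and 0.815 with sg4.

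TGFA, transforming growth factor alpha, was the most abundant of the 10 genes. It had 960, 926 and 1037 CPM in sg2 libraries and 930, 978 and 1034 CPM in sg4 libraries, against 1216, 1164 and 1192 CPM in control libraries. All 6 knockout libraries were below all 3 controls, and the gap between the highest knockout and the lowest control library was wider than the range of the controls. The log2 change was -0.29 ± 0.052 with sg2 and -0.28 ± 0.052 with sg4 (SE), a 1.22-fold and a 1.21-fold lower level. With at least 12985 estimated counts in every library, the level of TGFA had a smaller standard error than that of HBEGF.

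Epiregulin, encoded by EREG, binds EGFR and ERBB4. It had 434, 420 and 463 CPM in sg2 libraries and 417, 400 and 436 CPM in sg4 libraries, against 466, 476 and 433 CPM in control libraries. The groups overlapped, since control library 3 lay within the range of both knockout groups. The log2 change was -0.06 ± 0.0549 with sg2 and -0.13 ± 0.0549 with sg4 (SE), and neither was called.

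Amphiregulin, encoded by AREG, was rare in these cells. It had 1.43, 1.93 and 3.41 CPM in sg2 libraries and 1.51, 2.38 and 2.90 CPM in sg4 libraries, against 2.36, 2.09 and 1.35 CPM in control libraries. These values rest on 19 to 50 estimated counts, the groups overlapped, and the log2 change of both guides, 0.22 ± 0.307 (SE), had a 95% interval from -0.39 to 0.82. AREG has a near-identical copy in the GRCh37 assembly, so how its reads were assigned is uncertain.

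**Figure D1:**
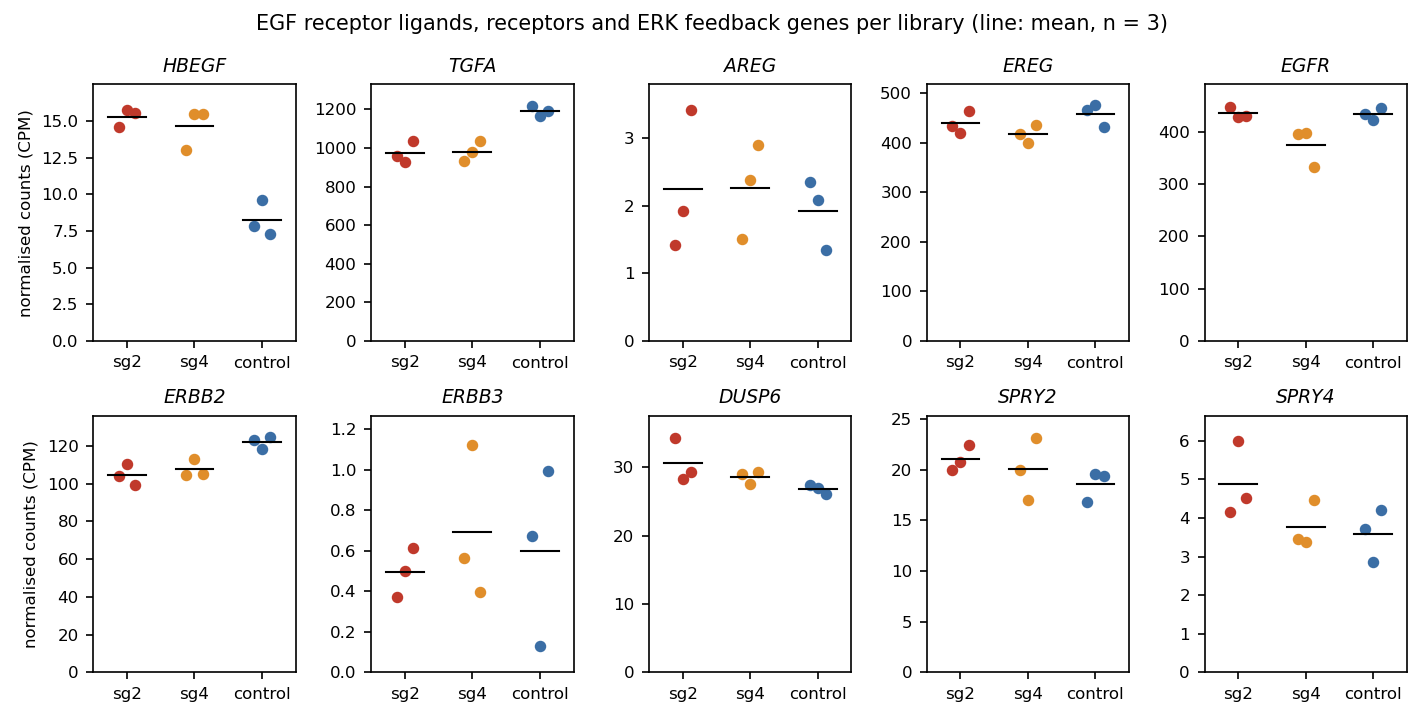
Normalised counts in CPM (vertical axes, each from 0) of the 10 genes in the 3 libraries of sg2, sg4 and control; points are libraries and lines are group means. The 6 knockout libraries lie above the 3 controls for HBEGF and DUSP6 and below them for TGFA and ERBB2, and overlap them for the other 6 genes.

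The 4 ligand genes among the members were also summed in TPM, which allows for transcript length. They made up 658 ± 43.2 TPM in sg2, 625 ± 16.7 TPM in sg4 and 773 ± 14.6 TPM in control libraries (SD, n = 3 each). The highest knockout library reached 703.9 TPM and the lowest control 756.8 TPM, so the summed ligand level was lower in every knockout library, and TGFA made up most of that sum. HBEGF held 2.11 ± 0.154% of the ligand TPM in sg2 and 2.05 ± 0.150% in sg4, against 0.993 ± 0.145% in control libraries (SD, n = 3 each). TGFA held 68.2% in sg2, 69.4% in sg4 and 72.3% in control libraries, and EREG 29.0%, 27.9% and 26.3% in the same groups. HBEGF remained a small part of the RNA of these 4 genes, at most 2.29% of the TPM sum in any library. Its share in every knockout library was above that in every control. Other ligand genes of the family are not in this sum, such as NRG1 at 23.5, 22.7 and 23.0 TPM in sg2, sg4 and control libraries.

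**Figure D2:**
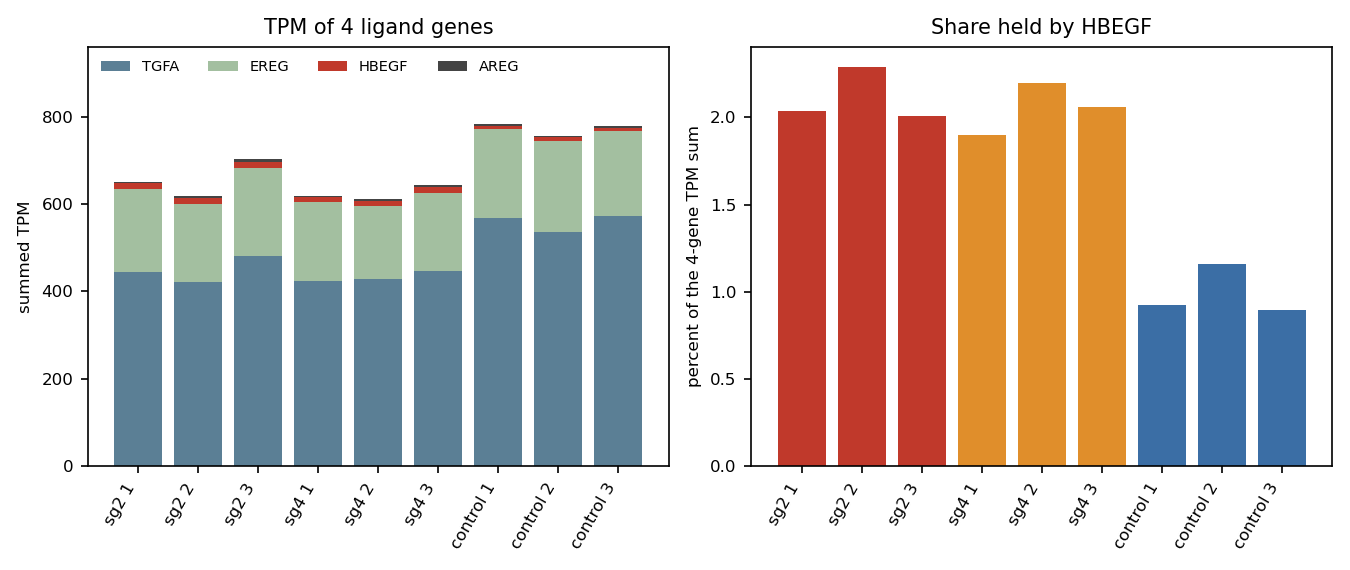
Left, summed TPM of TGFA, EREG, HBEGF and AREG in each library; right, the percentage of that sum held by HBEGF, both from 0. TGFA and EREG fill nearly all of each bar, and the HBEGF share is 1.90% to 2.29% in knockout libraries and 0.896% to 1.16% in control libraries.

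EGFR, the receptor that all 4 ligands bind, had 449, 429 and 430 CPM in sg2 libraries and 396, 397 and 333 CPM in sg4 libraries, against 434, 422 and 446 CPM in control libraries. The sg2 libraries overlapped the controls, and the 3 sg4 libraries lay below all of them, with sg4 library 3 the lowest by far. The log2 change against control was 0.01 ± 0.0594 with sg2 and -0.21 ± 0.0595 with sg4 (SE). The call with sg4 was lost, at -0.13, without sg4 library 3, and also without control 1, without control 3 or without the 3 libraries with shifted short transcripts. The difference between the guides was not used to choose the genes. It was -0.22 ± 0.0595 (SE) for sg4 minus sg2, with all 3 sg4 libraries below all 3 sg2 libraries, and did not pass in edgeR's quasi-likelihood test with Benjamini-Hochberg adjustment over all genes (adjusted p = 0.292). Over the alternatives its adjusted p ranged from 0.0369 without a filter on low counts to 0.915 without the 3 libraries with shifted short transcripts.

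ERBB2, the receptor that pairs with the others without a ligand of its own, had 104, 110 and 99.3 CPM in sg2 libraries and 105, 113 and 105 CPM in sg4 libraries, against 123, 118 and 125 CPM in control libraries. Every knockout library was below every control, by a narrow margin between sg4 library 2 and control library 2. The log2 change was -0.22 ± 0.0604 with sg2, -0.18 ± 0.0602 with sg4 and -0.20 ± 0.0519 in the mean of both (SE). ERBB2 was called with sg2 and in the mean but not with sg4, and the call in the mean was lost without control 1, without control 3 or without the libraries with shifted short transcripts. The call with sg2 was lost without sg2 library 1, sg2 library 3, control 1 or control 3. MIEN1 overlaps ERBB2 on the annotation, with 419 to 539 estimated counts in a library against 1455 to 1827 for ERBB2, and the strand setting of the counting is not given in the sources used here.

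ERBB3, a receptor for neuregulins, was close to undetected at 2 to 17 estimated counts in a library. Its level was 0.372, 0.499 and 0.614 CPM in sg2 libraries and 0.566, 1.123 and 0.395 CPM in sg4 libraries, against 0.673, 0.130 and 0.995 CPM in control libraries. No difference was detectable at this depth: the 95% interval of the log2 change in the mean of both guides ran from -1.03 to 0.99. The summed receptor level was 226 ± 7.59 TPM in sg2, 195 ± 20.8 TPM in sg4 and 238 ± 9.31 TPM in control libraries (SD, n = 3 each), and followed EGFR.

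DUSP6, the ERK phosphatase, had 34.3, 28.3 and 29.4 CPM in sg2 libraries and 29.0, 27.6 and 29.3 CPM in sg4 libraries, against 27.4, 26.9 and 26.1 CPM in control libraries. All 6 knockout libraries were above the 3 controls, but sg4 library 2 and control 1 nearly touched and sg2 library 1 stood above the rest. The log2 change was 0.19 ± 0.0924 with sg2 and 0.10 ± 0.0927 with sg4 (SE) and was called with neither. On the TPM scale the order no longer held, since control library 1 stood at 17.9 TPM and sg4 library 2 at 17.03 TPM.

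SPRY2 had 20.0, 20.8 and 22.4 CPM in sg2 libraries and 20.0, 16.98 and 23.1 CPM in sg4 libraries, against 16.8, 19.6 and 19.3 CPM in control libraries. SPRY4 had 4.15, 5.99 and 4.51 CPM in sg2 libraries and 3.46, 3.37 and 4.47 CPM in sg4 libraries, against 3.70, 2.87 and 4.19 CPM in control libraries. For both Sprouty genes the sg4 libraries overlapped the controls, while for SPRY2 all 3 sg2 libraries, and for SPRY4 only 2 of the 3, were above every control. The log2 change in the mean of both guides was 0.14 ± 0.10 for SPRY2 and 0.26 ± 0.205 for SPRY4 (SE), and neither was called.

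**Figure D3:**
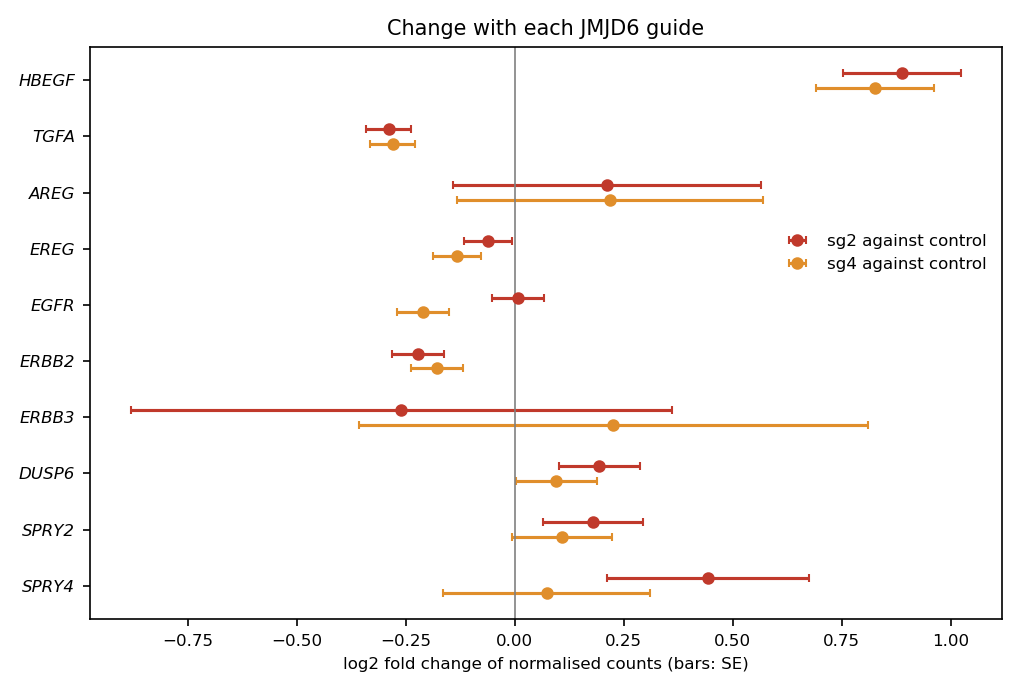
Log2 fold change of normalised counts against control (horizontal axis) for each of the 10 genes with guide sg2 and guide sg4; points are estimates and bars are SE. HBEGF lies near 0.89 and 0.83 and TGFA near -0.29 and -0.28, while EGFR is at 0.01 with sg2 and -0.21 with sg4, and the bars of AREG and ERBB3 cross 0 with both guides.

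A gene was called where the Benjamini-Hochberg adjusted p was under 0.05 over the 13530 genes that passed a filter on low counts, and all 10 members passed that filter. With the guides averaged, 3 of the 10 were called, HBEGF higher and TGFA and ERBB2 lower, where 13.9% of all genes tested were called, 6.92% higher and 6.95% lower. With sg2 the same 3 were called, where 10.4% of all genes were, 5.0% higher and 5.36% lower. With sg4 HBEGF was called higher and TGFA and EGFR lower, where 8.43% of all genes were called, 4.65% higher and 3.78% lower. HBEGF and TGFA were called in the same direction with each guide, as were 4.98% of all genes. In CPM, 4 of the 10 did not overlap between the 6 knockout and the 3 control libraries, against 14.9% of all genes; 2 lay above the controls, against 7.76% of all genes, and 2 below, against 7.18%. Because the choice of the genes drew on this contrast, nothing is read from these counts. The median log2 change in the mean of both guides was 0.06 over the 10 members and -0.01 over all genes tested.

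Between the guides, sg4 against sg2, none of the 10 members was called by edgeR's quasi-likelihood test. Of all genes 0.0591% were called, 0.0443% higher and 0.0148% lower. Only EGFR had an unadjusted p under 0.05, by edgeR and by DESeq2, and the share of all genes with such a p is not given here. DESeq2 also called none, but it gave no adjusted p for HBEGF, AREG, ERBB3, DUSP6, SPRY2 and SPRY4. Its adjusted p for EGFR was 0.0518. The log2 difference of sg4 minus sg2 was -0.06 for HBEGF with a 95% interval from -0.31 to 0.19, and 0.01 for TGFA with an interval from -0.09 to 0.11. Of the feedback genes, SPRY4 was 0.37 lower with sg4 on the log2 scale, with an interval from -0.82 to 0.08. JMJD6 itself was 1.37-fold lower with sg4 than with sg2, a difference not called by edgeR's quasi-likelihood test (adjusted p = 0.258).

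The order of the members by TPM was the same in all 3 groups. TGFA averaged 449 TPM in sg2, 434 TPM in sg4 and 559 TPM in control libraries, followed by EREG at 191, 175 and 203 TPM and EGFR at 179, 148 and 182 TPM. EREG and EGFR overlapped in the sg2 libraries and were separate in the other groups. ERBB2 followed at 47.1, 46.7 and 55.9 TPM, and DUSP6 and SPRY2, between 17.5 and 19.8 TPM on average, overlapped in every group. HBEGF came next at 13.9 TPM in sg2, 12.8 TPM in sg4 and 7.66 TPM in control libraries, then AREG at 4.27, 4.15 and 3.77 TPM, SPRY4 at 1.90, 1.42 and 1.44 TPM, and ERBB3 at 0.264, 0.319 and 0.315 TPM. In control libraries TGFA was above 98.3% of the genes tested, EREG above 94.2% and EGFR above 93.4%, whereas HBEGF was above 28.2% and ERBB3 above 0.976%.

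The shares of single transcripts, which the choice of the genes did not use, could be tested for 6 members with several transcripts. How far the shares reflect isoforms was not tested. The mean estimated counts of the transcripts of 1 gene differed by at most 1.15-fold in TGFA, 1.17-fold in SPRY4 and 1.56-fold in DUSP6, and by 2.34-fold in SPRY2, 3.73-fold in ERBB2 and 9.79-fold in EGFR. Per nucleotide of transcript the EGFR transcripts differed by 2.83-fold and those of ERBB2 by 2.05-fold. ERBB2 came closest to a difference, where NM_004448, its most abundant transcript, held 20.3 ± 0.729% of the ERBB2 TPM in 6 knockout libraries and 21.4 ± 0.834% in 3 control libraries (SD). In an exact 2-sided permutation test of the 6 knockout and 3 control libraries, with 84 arrangements, p was 0.0595, and adjusted over the 6 members 0.286; the smallest p this design allows is 0.0119, which adjusted over 6 members is 0.0714 if 1 member alone reaches it. A change in 1 member alone could therefore not be called, and 0 of the 6 had an unadjusted p under 0.05. HBEGF, AREG and EREG had 1 transcript each, and ERBB3 had too few counts.

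The genes whose pattern over the 9 libraries was most like that of HBEGF were TMEM258, RPS21, SEMA7A, RPLP2 and IL7R, in that order. Likeness was the root mean square difference in log2 CPM after centring each gene on its mean, over 9 libraries and 11416 genes. It was 0.133 log2 units for TMEM258, a subunit of the oligosaccharyltransferase, 0.143 for the ribosomal protein gene RPS21 and 0.160 for SEMA7A, a membrane-anchored semaphorin. RPLP2, another ribosomal protein gene, stood at 0.160, and IL7R, a subunit of the interleukin 7 receptor, at 0.163. TMEM258 averaged 23.8 CPM in 6 knockout libraries and 13.3 CPM in 3 control libraries. IL7R averaged 27.1 CPM in the knockout libraries and 16.96 CPM in the control libraries. In the mean of both guides, the log2 changes of these genes ran from 0.605 for SEMA7A to 0.839 for TMEM258. The likeness therefore includes the difference between knockout and control by which HBEGF was chosen. This is a description of closeness in these libraries.

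Around the 10 members, 66 other genes of the pathway were in the files and 60 passed the filter. The lists of these genes were drawn up with earlier results of these data known. Their calls and adjusted p-values against control, here and below, are therefore a description and not independent tests. Averaged over both guides, 6 rose and 5 fell by edgeR's quasi-likelihood test with Benjamini-Hochberg adjustment over all genes, which is 18.3% of the 60 against 13.9% of all genes tested; 49 did not pass. The median log2 change of the 60 was 0.01, against -0.01 over all genes. Among the other ligands, 0 of the 4 tested (EGF, BTC, NRG1 and NRG2) were called, with 0 also called for each guide. NRG1 had 47.2, 44.6 and 43.1 CPM on average in sg2, sg4 and control libraries. ERBB4, the other receptor of HBEGF, did not pass the filter.

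Of 7 genes tested for ligand shedding and handling, 3 rose and 0 fell in the mean of both guides, where 6.92% of all genes tested rose, while the median log2 change of the 7 was -0.02. ADAM10, a membrane protease that sheds several EGF family ligands, rose by 0.18 ± 0.0487 on the log2 scale (SE, adjusted p = 0.0158), averaging 366 ± 23.8 CPM in sg2, 346 ± 15.3 CPM in sg4 and 315 ± 7.95 CPM in control libraries (SD, n = 3 each). ADAM12, another protease reported to cleave the HBEGF precursor, rose by 0.25 ± 0.0725 (SE, adjusted p = 0.0218). FRMD8, which stabilises the iRhom proteins that carry ADAM17, rose by 0.29 ± 0.0720 (SE, adjusted p = 0.00859). By single guide 1 of the 7 (14.3%) was called with each, where 10.4% of all genes tested were called with sg2 and 8.43% with sg4. These were ADAM10 with sg2 and FRMD8 with sg4, and ADAM12 was called with neither (adjusted p = 0.0612 with sg2 and 0.0521 with sg4). ADAM17 itself, the main protease of TGFA and AREG, was not called. Each of the 3 rises lost its call without at least 1 library: ADAM10 without control 1, FRMD8 without the libraries with shifted short transcripts, and ADAM12 without any 1 of the 3 controls or without those libraries.

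Of 6 receptor adaptors, SOS1, the exchange factor that loads RAS, was the 1 called; it fell by 0.18 ± 0.0588 on the log2 scale (SE, adjusted p = 0.0356) and lost that call in 10 of 16 alternatives. Of 7 genes tested for receptor down-regulation, ERRFI1 was the 1 called. ERRFI1, also known as MIG6, is an ERK-induced inhibitor of the EGFR kinase. It had 1595, 1477 and 1769 CPM in sg2 libraries and 1322, 1414 and 1512 CPM in sg4 libraries, against 1793, 1743 and 1711 CPM in control libraries. Its sg4 libraries lay below every control, while sg2 library 3 lay among the controls. It fell by 0.21 ± 0.0492 on the log2 scale in the mean of both guides (SE, adjusted p = 0.00521), a call lost without control 1. By single guide, ERRFI1 and SOS1 were called with sg4 and not with sg2.

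Of 11 genes of the kinase chain, HRAS rose and MAPK3, which encodes ERK1, fell, and 9 did not pass in the mean of both guides. By single guide, HRAS was called with sg4 and not with sg2, and MAPK3 with sg2 and not with sg4. In the mean, HRAS rose by 0.27 ± 0.0739 on the log2 scale (SE, adjusted p = 0.0166) and MAPK3 fell by 0.21 ± 0.0625 (SE, adjusted p = 0.0264). The HRAS call was lost without control 2 or 3, and that of MAPK3 without any 1 of 4 libraries, sg2 library 1, sg4 library 1, control 2 or control 3; both were lost without the libraries with shifted short transcripts. Of 8 genes of the PI3K-AKT arm, PIK3R2 was the 1 called. This regulatory subunit of PI3K had 119, 125 and 129 CPM in sg2 libraries and 130, 138 and 135 CPM in sg4 libraries, against 149, 164 and 160 CPM in control libraries. It was lower in 6 of 6 knockout libraries and fell by 0.29 ± 0.0504 on the log2 scale (SE, adjusted p = 3.76e-04).

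Of the 17 genes of ERK feedback and output, 2 rose, 1 fell and 14 did not pass in the mean of both guides, which is 17.6% called against 13.9% of all genes tested. Counted by guide, 5 of the 17 (29.4%) were called for sg2, 3 higher and 2 lower, where 10.4% of all genes tested were called. For sg4, 2 of the 17 (11.8%) were called, 1 in each direction, where 8.43% of all genes tested were called. DUSP5, a nuclear phosphatase of ERK, had 72.4, 66.3 and 82.9 CPM in sg2 libraries and 61.7, 71.0 and 70.1 CPM in sg4 libraries, against 57.0, 50.1 and 51.0 CPM in control libraries. It was higher in 6 of 6 knockout libraries and rose by 0.42 ± 0.0719 on the log2 scale (SE, adjusted p = 2.72e-04). EGR1, an immediate early transcription factor induced by ERK, had 163, 161 and 140 CPM in sg2 libraries and 194, 176 and 177 CPM in sg4 libraries, against 231, 189 and 238 CPM in control libraries. The sg2 libraries of EGR1 lay below all controls, as did sg4 libraries 2 and 3, while sg4 library 1 lay above control library 2. EGR1 fell by 0.38 ± 0.0629 on the log2 scale (SE, adjusted p = 1.89e-04). FOSL1, an AP-1 subunit that rises with sustained ERK activity, rose by 0.21 ± 0.0590 (SE, adjusted p = 0.0163). That call was lost without control 2, without control 3 or without the libraries with shifted short transcripts. By single guide, FOSL1 was called with sg2 and not with sg4. In the mean, DUSP5, EGR1 and PIK3R2 kept their calls under all 16 alternatives. They were also called with each guide. Between the guides 0 of the 60 pathway genes were called by edgeR or DESeq2. Genes of low counts can lack an adjusted p in DESeq2, as HBEGF did, and such genes could not be called there. By each tool 10 of the 60 had an unadjusted p under 0.05. The share of all genes with such a p is not given here, so nothing is read from the 10.

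**Figure D4:**
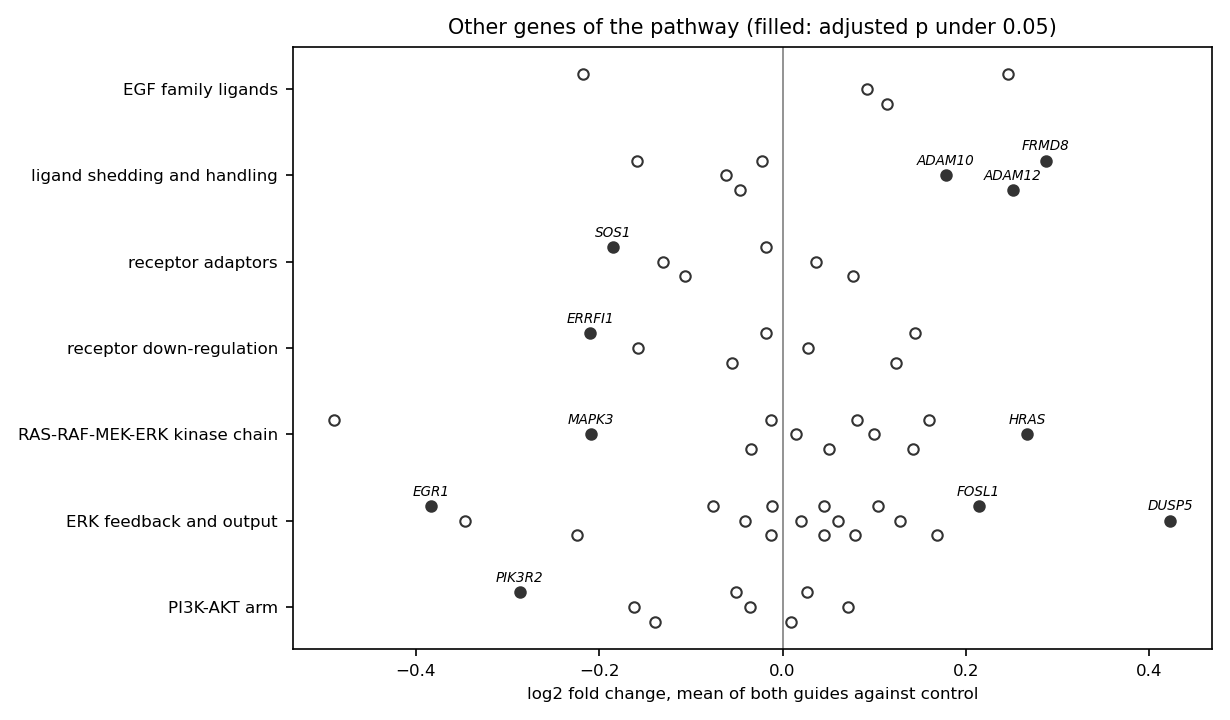
Log2 fold change in the mean of both guides against control (horizontal axis) for the 60 other pathway genes tested, in rows by list; vertical offsets within a row only separate points, and filled points have an adjusted p under 0.05. The 11 filled points lie on both sides of 0, with DUSP5 at 0.42 farthest right and EGR1 at -0.38 farthest left among them.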

How the data were processed

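RNA of 9 libraries of 786-O cells was analysed. Per the file headers, the authors deposited Salmon estimated counts and TPM per RefSeq transcript; the counts are whole numbers. STAR 2.5.2b, cutadapt 1.12, Salmon, DESeq2 and builds hg19 and GRCh37 are named in the submitters' processing notes; Salmon settings are not given in the sources used here. Of 60422 transcript accessions, 58031 (96.04%) matched the RefSeq gene table of GRCh38.p14, used for names, and were summed to 26809 genes; unmatched ones held 1.33% to 1.65% of a library's counts. EdgeR 4.0.16 (R 4.3.3) fitted the estimated counts with TMM scaling, filterByExpr and a quasi-likelihood test, all 9 libraries in 1 fit, 2-sided, adjusted by Benjamini-Hochberg over 13530 genes. CPM use TMM library sizes. Intervals are 1.96 SE. The fit was tested on simulated data. Alternatives were RLE scaling, no filter, DESeq2 1.42.0, groups fitted separately, a replicate block, removal of the length trend, each library left out and 3 libraries left out together.

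The members and lists were chosen with earlier results of these data known. Named were all 10 members, every pathway gene called in the mean of both guides (up to 4 per list and direction) and the 5 genes most like HBEGF whose mean log2 CPM was 2 or more. Peak lists were not analysed here.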

Additional observations from a re-analysis of the deposited data

How the results depend on the processing

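Of 718 values recomputed under another setting, 632 were counted as the same. A change counted as the same when it kept its sign and its call, and a number of genes when it stayed within 1.5-fold. A fall from 3 to 2 members called was therefore counted as the same. In the mean of both guides HBEGF ranged from 0.70 to 0.98 and TGFA from -0.32 to -0.26 on the log2 scale, a description, since this contrast led to the choice of the genes. Leaving out 1 library at a time gave 2 to 3 members called in the mean of both guides, and the same range for each guide. It gave 3 to 7 pathway genes higher and 3 to 5 lower, and 938 to 1878 genes called in the mean, 735 to 1595 with sg2, 606 to 1227 with sg4 and 0 to 49 for sg4 against sg2. Without control 3 and sg4 libraries 2 and 3, an alternative chosen with earlier results known, 1 member, TGFA, was called with sg4, 2 pathway genes rose, and 1116 genes were called in the mean, 358 with sg4 and 0 for sg4 against sg2; the cause was not tested, beyond the smaller number of libraries. For sg4 against sg2, 72 genes were called without the filter, among them 1 member, EGFR, and 18 by DESeq2.

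Same-numbered libraries did not deviate together (9 pairs, r from -0.141 to 0.0525), so the numbers were not taken to pair them. With the replicate block 1527 genes were called in the mean, 1089 with sg2, 869 with sg4 and 2 for sg4 against sg2, and the members called stayed at 3 in the mean.

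Changes of sign touched values near 0 or of few counts. Without the 3 libraries, TGFA in sg4 minus sg2 was -0.065, AREG -0.269 in the mean and -0.569 in sg4 minus sg2, and ERBB3 0.398 in the mean. AREG in sg4 minus sg2 was -0.047 with the length trend removed. ERBB3 in the mean was 0.011 with the length trend removed and 0.006 with groups fitted separately. With 1 library left out, sg4 minus sg2 ran from -0.101 to 0.024 for HBEGF, -0.029 to 0.055 for TGFA, -0.246 to 0.434 for AREG, -0.03 to 0.763 for ERBB3 and -0.184 to 0.036 for SPRY2. ERBB3 in the mean ran from -0.504 to 0.542, and the SPRY4 transcript share, knockout minus control, from -3.257 to 4.699 percentage points. Depth limits AREG, with at most 50 estimated counts in a library, and ERBB3, with at most 17.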
